A study of Mus musculus with 2 samples.

Results

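Heat shock proteins and chaperonins are represented here by 10 genes, chosen by symbol from the 32285 genes of the deposited matrices: Hspa1a, Hspa1b, Hsph1, Dnajb1, Hspa8, Hsp90aa1, Hsp90ab1, Hspd1, Hspe1 and Hspa5. Bone marrow came from wild-type C57Bl6 mice with no treatment named in the labels, and the series title gives an age of 8 weeks. Haematopoietic stem cells were sorted by surface phenotype into long-term cells (LT-HSC; LSK, CD34-, CD150+, CD48- and Flk2-) and short-term cells (ST-HSC; LSK, CD34-, CD150+ and CD48+), where LSK stands for lineage-negative, Sca-1-positive and Kit-positive. Each population is 1 library made with the 10x Genomics 3' v2 kit, in which a unique molecular identifier (UMI) marks every captured polyadenylated RNA. The labels do not say how many animals were pooled, so no value carries a replicate error, and every interval covers counting error only.

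Cells were kept if they had 1000 or more genes and if mitochondrial genes gave less than 10% of their UMIs, which left 2722 of 2938 LT-HSC barcodes and 6648 of 7586 ST-HSC barcodes. The kept cells held 64673871 and 111783180 UMIs, with medians of 17595 and 13402 UMIs per cell. Mitochondrial UMIs had a median share of 1.60% in the LT-HSC cells and 3.47% in the ST-HSC cells. The libraries shared 8 barcodes, 6 of them among kept cells. Transcripts of the sorting gate went partly against the labels: Slamf1, which encodes CD150, stood at 26.5 UMIs per 1000000 (CPM) under the label LT-HSC and 1.26 CPM under the label ST-HSC. Cd34 stood at 29.2 and 242 CPM, Flt3, which encodes Flk2, at 5.50 and 291 CPM, and Cd48 at 35.3 and 74.7 CPM, in the same order. Low Slamf1 and high Cd34 in the ST-HSC library are at odds with a CD34-, CD150+ gate.

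Within each library, cells were placed in classes by 1 gene each: Hlf-high (3 or more Hlf UMIs per 10000 UMIs of the cell and at least 2), Dntt-positive (2 or more Dntt UMIs), Car1-high (20 or more Car1 per 10000) and Pf4-high (10 or more Pf4 per 10000). Hlf encodes a transcription factor of stem cells, Dntt the terminal transferase of early lymphoid progenitors, Car1 a carbonic anhydrase of erythroid progenitors and Pf4 platelet factor 4 of the megakaryocyte lineage. The LT-HSC library held 769 Hlf-high, 742 Car1-high, 241 Pf4-high and 1 Dntt-positive cells, and 951 cells that met no definition. The ST-HSC library held 2960 Hlf-high, 848 Dntt-positive, 255 Car1-high and 4 Pf4-high cells, 821 cells that were both Hlf-high and Dntt-positive, and 1741 that met no definition. A class is a range cut from a continuous level: in the ST-HSC library, 847 cells had at least 50% of the Hlf threshold without reaching it and 1435 lay between the threshold and its double. Each marker list holds the gene that cut its class, so its sum goes with the class name partly by construction. Stem cell markers summed to 4035 and 3957 CPM in the Hlf-high cells of the LT-HSC and ST-HSC libraries, erythroid markers to 8523 and 6727 CPM in the Car1-high cells, megakaryocyte markers to 7399 CPM in the LT-HSC Pf4-high cells, and lymphoid progenitor markers to 2417 CPM in the ST-HSC Dntt-positive cells. Of these sums, in the same order, Hlf alone gave 591 and 844 CPM, Car1 6805 and 3844 CPM, Pf4 5785 CPM and Dntt 809 CPM.

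Molecular chaperones hold unfolded or newly made proteins until they fold, and many of their genes are switched on by heat shock factor, Hsf1, when unfolded protein accumulates. The cytosolic Hsp70 proteins bind exposed hydrophobic stretches in a cycle driven by ATP, J-domain proteins deliver substrates to them, and Hsp110 proteins exchange their nucleotide. Hsp90 finishes the folding of kinases and receptors, Hsp60 and Hsp10 form a closed folding chamber in mitochondria, and BiP is the Hsp70 of the endoplasmic reticulum. In blood formation, Hsp70 is known for protecting the erythroid transcription factor GATA1 from cleavage, and stem cells are known for a low rate of protein synthesis.

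Promoter windows of 300 bases, from 250 before to 50 after each RefSeq transcript start (assembly GRCm38.p6), were found for 7 of the 10 genes. Hspa8, Hsp90aa1 and Hsp90ab1 had none. Windows were searched for the heat shock element core, spelled GAANNTTC or TTCNNGAA, each of which reads the same on both strands and can overlap the other. One or other spelling occurred in 4946 of 32851 promoter windows, or 15.1%. It occurred in at least 1 window of 5 of the 7 genes: Hspa1a, Hspa1b, Hsph1, Hspd1 and Hspe1. The windows of Hspa1a (chr17:34972107-34972406, minus strand) and Hspa1b (chr17:34959189-34959488, minus strand) are shown because the pair are near copies. Capitals mark the match, which starts 104 bases before the transcript start in both.

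Hspa1a: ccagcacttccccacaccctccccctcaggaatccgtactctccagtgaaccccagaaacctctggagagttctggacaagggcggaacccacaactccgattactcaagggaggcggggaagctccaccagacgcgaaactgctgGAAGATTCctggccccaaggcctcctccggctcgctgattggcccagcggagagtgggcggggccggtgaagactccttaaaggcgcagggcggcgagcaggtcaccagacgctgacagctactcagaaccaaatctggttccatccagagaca
Hspa1b: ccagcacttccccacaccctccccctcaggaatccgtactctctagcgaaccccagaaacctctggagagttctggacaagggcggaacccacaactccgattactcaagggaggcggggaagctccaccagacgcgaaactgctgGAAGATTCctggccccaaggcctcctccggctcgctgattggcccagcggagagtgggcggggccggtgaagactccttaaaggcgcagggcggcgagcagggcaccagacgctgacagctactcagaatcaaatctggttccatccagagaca

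These 2 windows were 98.7% identical and differed at 4 positions, C44T, T47C, T249G and C276T, counted from 1 at the 5' end with the Hspa1a base first. No difference fell in the match. The Hsph1 window (chr5:149636287-149636586, minus strand) held 3 matches, of which the last 2 overlap. The Hspe1 window (chr1:55087898-55088197, plus strand) held a run of 3 overlapping matches that the second Hspd1 window (chr1:55087883-55088182, minus strand) reads from the opposite strand. It is shown because Hspd1 and Hspe1 lie head to head, overlapping by 112 bases.

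Hsph1: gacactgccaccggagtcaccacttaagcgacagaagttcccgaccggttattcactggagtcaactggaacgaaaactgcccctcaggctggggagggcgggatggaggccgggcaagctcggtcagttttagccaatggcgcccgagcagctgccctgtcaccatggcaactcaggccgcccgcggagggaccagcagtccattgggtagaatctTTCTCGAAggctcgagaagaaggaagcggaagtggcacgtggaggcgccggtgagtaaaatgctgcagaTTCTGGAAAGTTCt
Hspe1: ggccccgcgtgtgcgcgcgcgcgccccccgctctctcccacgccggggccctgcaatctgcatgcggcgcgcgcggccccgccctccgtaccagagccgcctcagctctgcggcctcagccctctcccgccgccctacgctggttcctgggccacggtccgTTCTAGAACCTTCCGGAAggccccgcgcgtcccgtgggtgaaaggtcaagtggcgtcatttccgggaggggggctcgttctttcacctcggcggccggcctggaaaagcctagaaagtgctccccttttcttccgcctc

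No match was found in either Dnajb1 window or in the Hspa5 window. The Hspa5 window (chr2:34771840-34772139, plus strand) held instead the element through which stress in the endoplasmic reticulum acts, searched as CCAAT and CCACG separated by 9 bases, on either strand, and marked in capitals. That element occurred in 39 of 32851 windows, or 0.119%. A match describes the letters only.

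Hspa5: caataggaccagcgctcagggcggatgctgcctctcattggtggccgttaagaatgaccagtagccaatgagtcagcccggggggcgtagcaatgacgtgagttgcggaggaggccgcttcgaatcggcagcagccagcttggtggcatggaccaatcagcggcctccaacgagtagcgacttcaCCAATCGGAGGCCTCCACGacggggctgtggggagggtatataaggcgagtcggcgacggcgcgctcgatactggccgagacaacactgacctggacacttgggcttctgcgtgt

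In the GENCODE M21 annotation of the build the files use (mm10), all 10 are protein-coding genes. Hspa1a (chr17:34969190-34972156) and Hspa1b (chr17:34956436-34959238) lie 9951 bases apart. The others are Hsph1 (chr5:149614287-149636376), Dnajb1 (chr8:83608193-83612653), Hspa8 (chr9:40800984-40810087), Hsp90aa1 (chr12:110690605-110702728), Hsp90ab1 (chr17:45567775-45573271), Hspd1 (chr1:55077835-55088243), Hspe1 (chr1:55088132-55091307) and Hspa5 (chr2:34771970-34777547). Of all words of 90 bases in the Hspa1a transcripts, 49.3% also occur in Hspa1b, and 52.3% the other way, but 0% of those in the last 500 bases, where reads of a 3' kit mostly fall. How reads that match both copies, or processed pseudogenes of genes such as Hspa8 and Hspe1, were counted is not given in the sources used here, so the split within the Hspa1a and Hspa1b pair is uncertain.

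Among the 4 classes, all of these genes but Dnajb1 were lowest in Hlf-high cells of their library. All were highest in Car1-high cells, except Hspa5 in the LT-HSC library. There the Hspa5 levels of Hlf-high and Car1-high cells lay within counting error (ratio 1.03, 0.993 to 1.06). The Hsp70 pair and Hsph1 were 3.76-fold to 5.41-fold higher in Car1-high than in Hlf-high cells, the mitochondrial chaperonin was 3.13-fold to 3.999-fold higher, and Dnajb1 and Hspa5 differed by less than 1.5-fold. Together the 10 genes took 0.531% of UMIs in Hlf-high cells and 0.946% in Car1-high cells of the LT-HSC library, and 0.516% and 1.11% in the ST-HSC library.

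**Figure D1:**
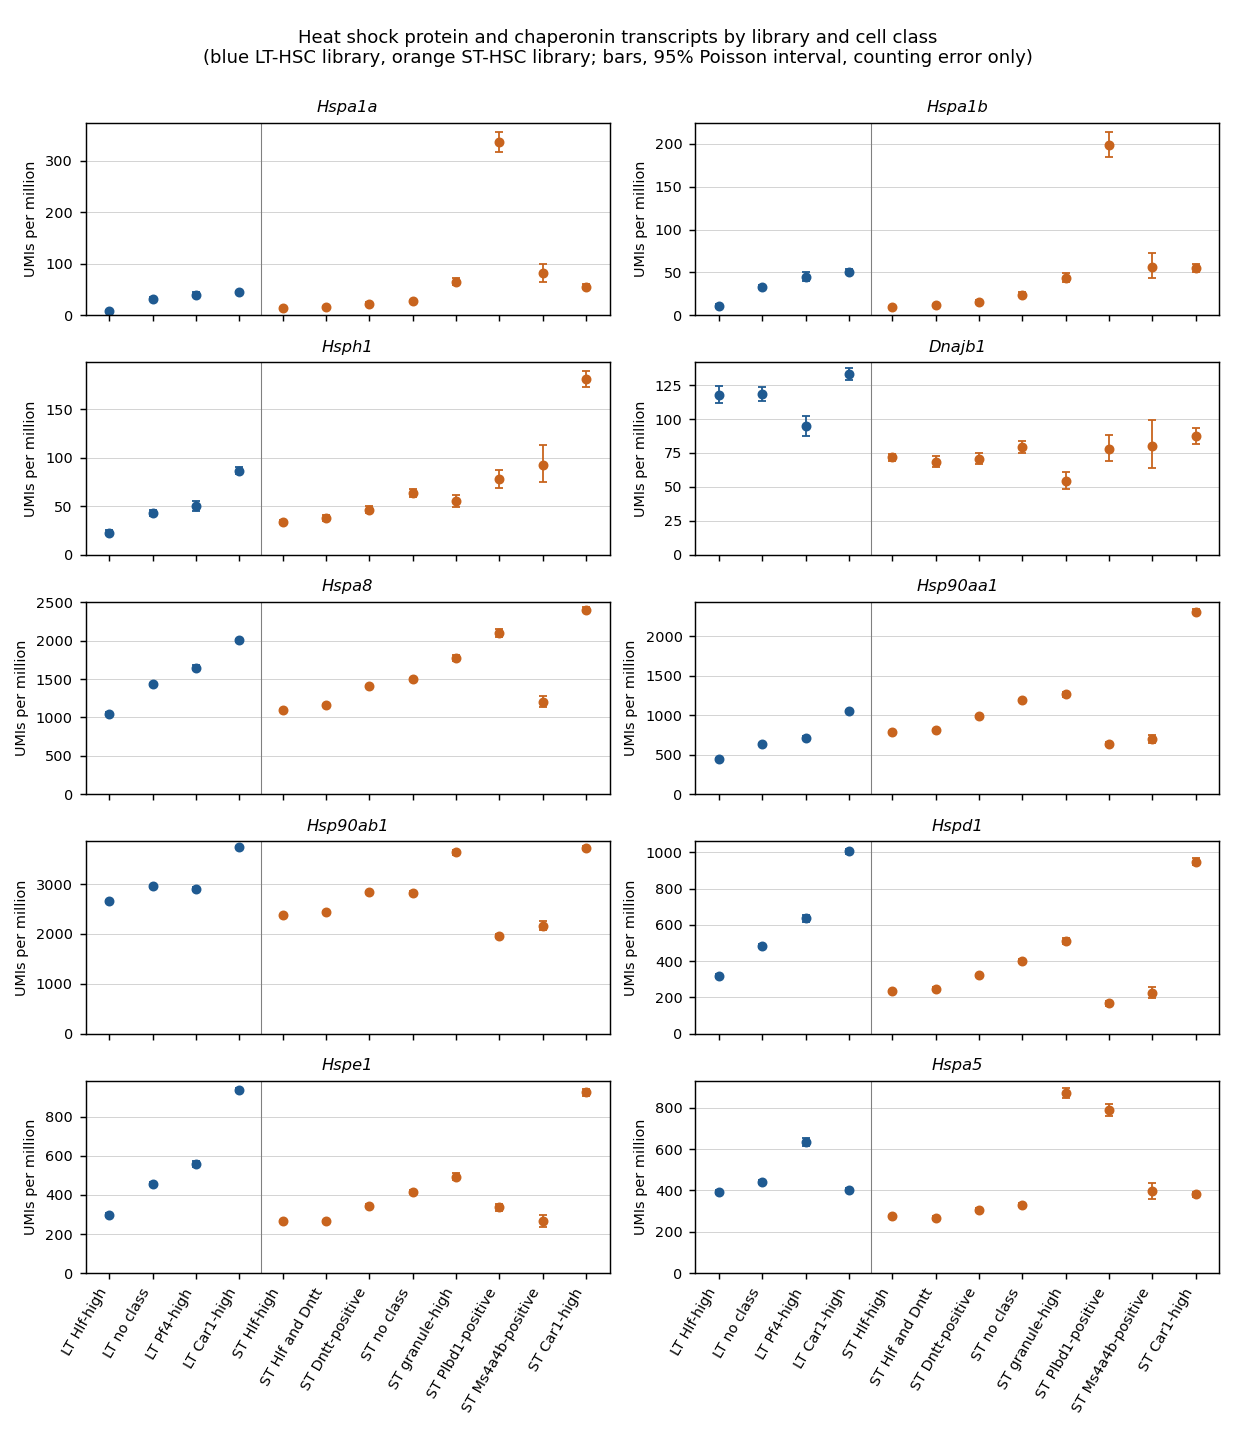
Level of each gene in CPM (linear axes from 0) for each cell class of the LT-HSC library (blue) and the ST-HSC library (orange), with 95% Poisson intervals for counting error. Hspd1 and Hspe1 are highest in the Car1-high cells of both libraries, Hspa1a and Hspa1b peak in the ST-HSC Plbd1-positive cells at 336 and 199.0 CPM, and every LT-HSC point of Dnajb1 lies above every ST-HSC point.

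Car1-high cells had higher levels than Hlf-high cells for 7 of the 10 genes among LT-HSC and 8 of the 10 among ST-HSC cells, where higher means a ratio of at least 1.5. Over all genes with a mean of at least 5 CPM, 16.7% were higher by this measure among LT-HSC and 20.7% among ST-HSC cells. None of the 10 was lower by 1.5-fold in either library, against 41.5% and 39.1% of all genes. The median log2 ratio of the 10 genes was 1.45 and 1.68, beside -0.36 and -0.25 over all genes. These counts depend on the scaling. With the trimmed mean of M values (TMM) the median of all genes moved to 0.22 and 0.07. All 10 members were then 1.5-fold higher in both libraries, against 35.3% of all genes among LT-HSC and 31.2% among ST-HSC cells. The share of higher among all called genes moved from 28.6% to 59.5% among LT-HSC and from 34.6% to 50.4% among ST-HSC cells.

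Pf4-high cells of the LT-HSC library had higher levels than Hlf-high cells for 8 of the 10 genes, against 13.5% of all genes, and lower levels for 0, against 29.2%. The exceptions were Dnajb1 at a ratio of 0.803 and Hsp90ab1 at 1.09. With TMM the count stayed at 8, against 22% of all genes, while higher genes went from 31.6% to 52.4% of all called genes. Dntt-positive cells of the ST-HSC library differed least from Hlf-high cells. Only Hspa1a, at 1.52, and Hspa1b, at 1.53, passed 1.5-fold, against 3.78% of all genes higher and 8.4% lower, and no member was lower. With TMM the count stayed at 2, against 4.98% of all genes, while higher genes went from 31.0% to 42.0% of all called genes. Neither gene passed 1.5-fold among cells that were not cycling, nor when cells that were both Hlf-high and Dntt-positive were counted in each class. Cells meeting both definitions stood near the Hlf-high cells, for example at 16.1 CPM of Hspa1a against 14.6 CPM in Hlf-high and 22.3 CPM in Dntt-positive cells.

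**Figure D2:**
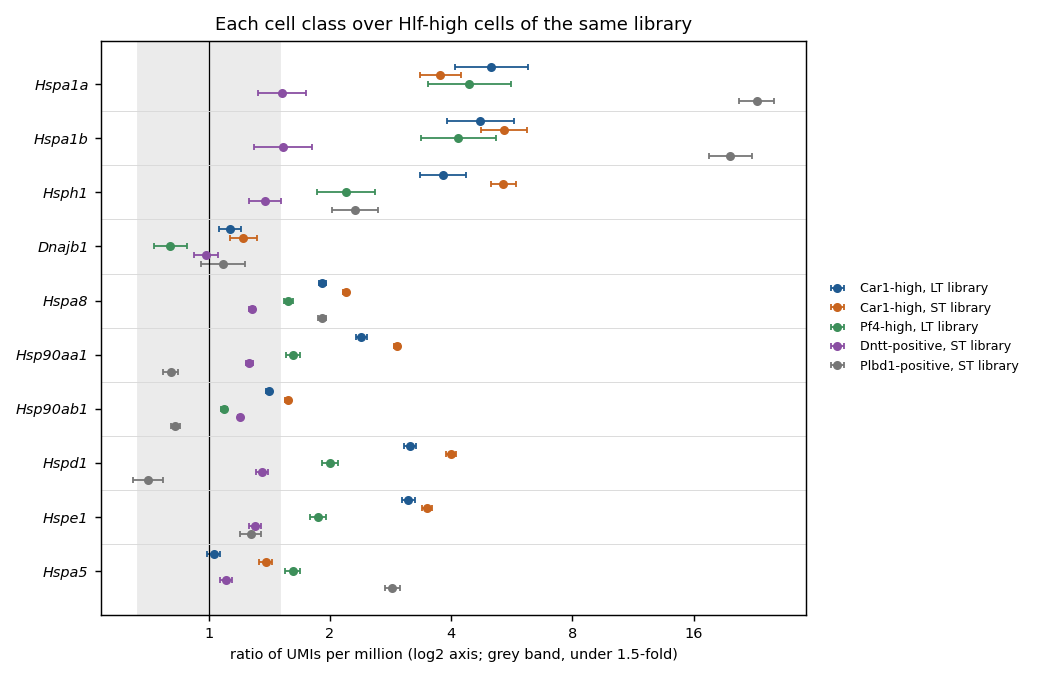
Ratio of each class to the Hlf-high cells of its own library (log2 axis), with exact conditional binomial 95% intervals and a grey band for ratios under 1.5-fold. Car1-high points of both libraries lie right of the band for Hspa1a, Hspa1b, Hsph1, Hspa8, Hsp90aa1, Hspd1 and Hspe1, and the Plbd1-positive points of Hspa1a and Hspa1b lie at 23.0 and 19.7.

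Hspa1a and Hspa1b, the stress-inducible cytosolic Hsp70 genes, were scarce in Hlf-high cells. Hspa1a stood at 8.91 CPM in LT-HSC Hlf-high cells, 31.8 CPM in cells with no definition, 39.5 CPM in Pf4-high and 44.7 CPM in Car1-high cells. In the ST-HSC library it stood at 14.6 CPM in Hlf-high, 22.3 CPM in Dntt-positive, 55.1 CPM in Car1-high and 76.1 CPM in no-definition cells. Hlf-high cells had the lowest of these values in both libraries, while the highest stood in Car1-high cells of the LT-HSC library and in no-definition cells of the ST-HSC library. Hspa1b took the values 10.8, 32.7, 45.0 and 50.9 CPM in the same LT-HSC classes. Its ST-HSC values were 10.1 CPM in Hlf-high, 15.4 CPM in Dntt-positive, 51.6 CPM in no-definition and 54.5 CPM in Car1-high cells. The Car1-high to Hlf-high ratio of Hspa1a was 5.02 (95% interval 4.09 to 6.22) among LT-HSC and 3.76 (3.34 to 4.24) among ST-HSC cells. For Hspa1b it was 4.71 (3.91 to 5.73) and 5.41 (4.74 to 6.17). The Pf4-high to Hlf-high ratios were 4.44 (3.51 to 5.64) for Hspa1a and 4.16 (3.36 to 5.18) for Hspa1b, and the pair stood at 95.7 CPM in Car1-high against 84.5 CPM in Pf4-high cells of that library. Hspa1a made up 47.5% of the UMIs of the pair among LT-HSC and 57.9% among ST-HSC cells, and 45.2% and 59.2% among Hlf-high cells. The shares were closer in Car1-high cells, at 46.8% and 50.3%, and were 49.2% and 59.6% in no-definition cells.

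Hsph1, which encodes the Hsp110 nucleotide exchange factor of Hsp70, had the class order of Hspa1b in both libraries. Hspa1a shared that order in the LT-HSC library only. In Plbd1-positive cells of the ST-HSC library, Hsph1 was at 2.31-fold the Hlf-high level, against 23.0-fold and 19.7-fold for the pair. Hsph1 was at 22.7 CPM in Hlf-high, 42.8 CPM in no-definition, 49.6 CPM in Pf4-high and 86.4 CPM in Car1-high cells of the LT-HSC library. In the ST-HSC library it was at 33.5 CPM in Hlf-high, 46.3 CPM in Dntt-positive, 64.6 CPM in no-definition and 181 CPM in Car1-high cells. The ST-HSC Car1-high cells thus had the highest level of Hsph1 of any class, 2.09-fold (1.97 to 2.23) above the LT-HSC Car1-high cells. Its Car1-high to Hlf-high ratio was 3.81 (3.35 to 4.35) among LT-HSC and 5.39 (5.02 to 5.79) among ST-HSC cells.

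Dnajb1, the J-domain protein (Hsp40) that brings substrates to Hsp70, did not follow its partners in level from class to class. Its level was 118 CPM in LT-HSC Hlf-high cells, 118 CPM in no-definition, 94.6 CPM in Pf4-high and 133 CPM in Car1-high cells. In the ST-HSC library it was 71.8 CPM in Hlf-high, 70.7 CPM in Dntt-positive, 74.2 CPM in no-definition and 87.5 CPM in Car1-high cells, and its lowest value was 54.6 CPM in granule-high cells, a group of ST-HSC cells that met no definition. Every LT-HSC class value of Dnajb1 lay above every ST-HSC class value, although the counting interval of LT-HSC Pf4-high cells (87.5 to 102) overlaps those of ST-HSC Car1-high (81.7 to 93.6), Plbd1-positive (69.2 to 87.9) and Ms4a4b-positive cells (63.6 to 99.3). Its Car1-high to Hlf-high ratio was 1.13 (1.06 to 1.20) among LT-HSC and 1.22 (1.13 to 1.32) among ST-HSC cells. Immediate early genes, a list that includes Fos, Jun and Egr1, were likewise higher in the LT-HSC library: they summed to 4302 CPM in its Hlf-high cells against 1859 CPM in ST-HSC Hlf-high cells, and to 2978 against 709.8 CPM in Car1-high cells. Their part in the Dnajb1 difference was not tested.

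Hspa8, the constitutive cytosolic Hsp70, differed less between classes than the pair and Hsph1, but more than Dnajb1. It was at 1046 CPM in Hlf-high, 1431 CPM in no-definition, 1648 CPM in Pf4-high and 2006 CPM in Car1-high cells of the LT-HSC library. ST-HSC values were 1099 CPM in Hlf-high, 1166 CPM in Hlf-high and Dntt-positive, 1409.5 CPM in Dntt-positive, 1618 CPM in no-definition and 2404 CPM in Car1-high cells. The ratio of Car1-high to Hlf-high cells was 1.92 (1.88 to 1.96) and 2.19 (2.15 to 2.22).

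The Hsp90 genes parted from each other. Hsp90aa1, the isoform that stress induces, was at 440.01 CPM in Hlf-high, 638 CPM in no-definition, 714 CPM in Pf4-high and 1054 CPM in Car1-high cells of the LT-HSC library. Its ST-HSC levels were 786 CPM in Hlf-high, 991 CPM in Dntt-positive, 1116 CPM in no-definition and 2306 CPM in Car1-high cells. Hlf-high and Car1-high cells, the classes found in each library, stood higher in ST-HSC, by 1.79-fold (1.73 to 1.84) for Hlf-high and 2.19-fold (2.15 to 2.23) for Car1-high cells. Hsp90ab1, the constitutive isoform, ranged only from 2653 CPM in Hlf-high to 3741 CPM in Car1-high cells of the LT-HSC library, and from 2372 CPM in Hlf-high to 3724 CPM in Car1-high cells of the ST-HSC library. Its Car1-high to Hlf-high ratio was 1.41 (1.39 to 1.43) and 1.57 (1.55 to 1.59), which lies on both sides of 1.5, and its level in Car1-high cells differed between the libraries by a ratio of 0.996 (0.984 to 1.008).

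Hspd1 and Hspe1, the Hsp60 and Hsp10 subunits of the mitochondrial chaperonin, had like levels in the classes of each library. Hspd1 was at 318 CPM in Hlf-high, 485 CPM in no-definition, 636 CPM in Pf4-high and 1005 CPM in Car1-high cells of the LT-HSC library, and Hspe1 at 298.6, 458, 558 and 936 CPM. In the ST-HSC library Hspd1 was at 237 CPM in Hlf-high, 322 CPM in Dntt-positive, 386 CPM in no-definition and 948 CPM in Car1-high cells, and Hspe1 at 265, 345, 417 and 925 CPM. Both genes had the same order of these classes in each library, but they parted in the Plbd1-positive cells of the ST-HSC library, at 168 CPM of Hspd1 and 337 CPM of Hspe1. The Car1-high to Hlf-high ratio was 3.17 (3.06 to 3.28) for Hspd1 and 3.13 (3.02 to 3.25) for Hspe1 in the LT-HSC library, and 3.999 (3.89 to 4.12) and 3.49 (3.39 to 3.59) in the ST-HSC library.

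Hspa5, which encodes BiP of the endoplasmic reticulum, had another order. In the LT-HSC library it was highest in Pf4-high cells, at 634 CPM, against 392 CPM in Hlf-high, 440.5 CPM in no-definition and 403 CPM in Car1-high cells. ST-HSC levels were 276 CPM in Hlf-high, 304 CPM in Dntt-positive, 382 CPM in Car1-high and 499 CPM in no-definition cells, and within the last it reached 788 CPM in Plbd1-positive and 872 CPM in granule-high cells. Hspa5 was 1.62-fold higher (1.55 to 1.69) in Pf4-high than in Hlf-high cells, while its Car1-high to Hlf-high ratio was 1.03 (0.993 to 1.06) among LT-HSC and 1.39 (1.34 to 1.44) among ST-HSC cells. A list of endoplasmic reticulum genes had 12 of 25 genes higher and 2 lower in Pf4-high cells, against 13.5% and 29.2% of all genes.

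Between whole libraries, 4 of the 10 genes were at least 1.5-fold lower in ST-HSC, against 10.3% of all genes, and 0 were higher, against 24.9%. Hspd1 was at 701 CPM (LT-HSC) and 353 CPM (ST-HSC) (ratio 0.503, 95% interval 0.496 to 0.510). Hspe1 was at 652 and 374 CPM (0.573, 0.565 to 0.581), and Dnajb1 at 122 and 73.0 CPM (0.599, 0.581 to 0.618). Hspa1b, at 38.1 and 25.4 CPM, lay just past the limit with a ratio of 0.666 (0.631 to 0.703), whereas its near copy Hspa1a had levels of 34.5 and 34.9 CPM (95% interval of the ratio 0.960 to 1.07). The other 5 genes were between these limits: Hsph1 at 0.964, Hspa8 at 0.854, Hsp90ab1 at 0.830, Hspa5 at 0.786 and Hsp90aa1 at 1.31. The median log2 ratio of the 10 was -0.31, beside 0.12 over all genes. With TMM the median of all genes was -0.01 and higher genes went from 70.7% to 54.2% of all called genes. The counts of members stayed at 4 lower and 0 higher, against 16.2% and 19.2% of all genes.

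**Figure D3:**
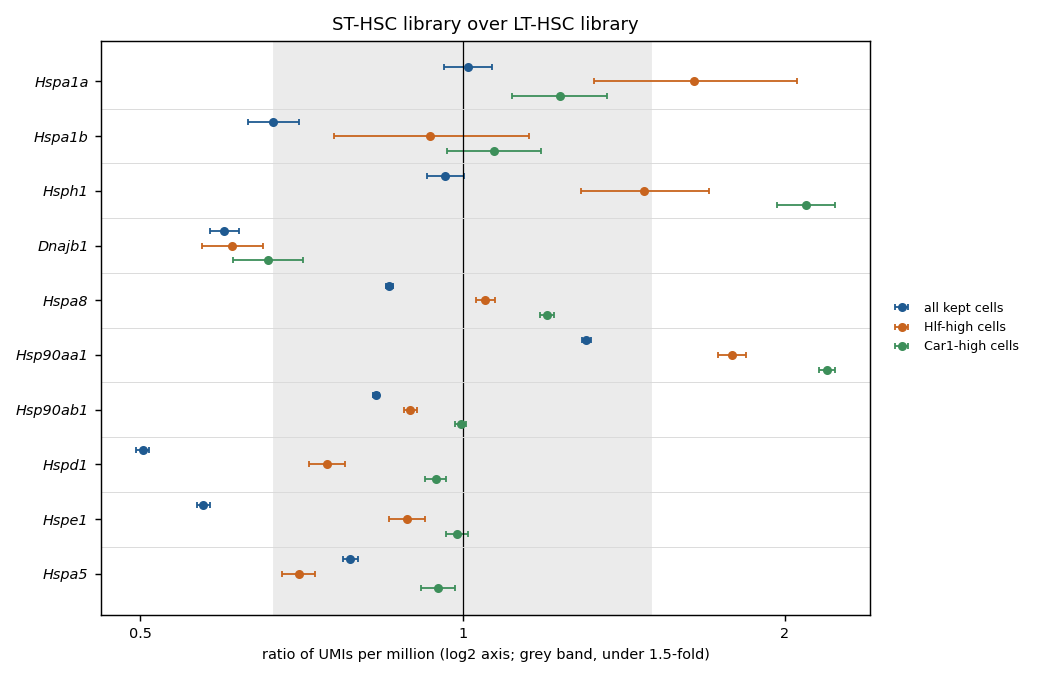
Ratio of the ST-HSC to the LT-HSC library (log2 axis) for all kept cells, Hlf-high cells and Car1-high cells, with exact conditional binomial 95% intervals and a grey band for ratios under 1.5-fold. Hspd1 moves from 0.503 over all cells to 0.747 in Hlf-high and 0.944 in Car1-high cells, whereas Dnajb1 stays between 0.599 and 0.658.

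The libraries differ in their mixture of cells. Car1-high cells were 27.3% of the LT-HSC cells and carried 43.9% of their UMIs, against 3.84% of the ST-HSC cells and 8.62% of their UMIs. Without Car1-high and Pf4-high cells, the log2 ratio of Hspd1 was -0.52 in place of -0.99, that of Hspe1 -0.31 in place of -0.80 and that of Hspa1b -0.11 in place of -0.59. Dnajb1 hardly moved, at -0.72 in place of -0.74, and was then the only member 1.5-fold lower. Hsp90aa1 became the only member 1.5-fold higher, with a log2 ratio of 0.70. Hspa1a depended on which cells were counted: its log2 ratio of 0.02 became 0.52 without Car1-high and Pf4-high cells, and -0.46 without Plbd1-positive cells, a small ST-HSC group. With Plbd1-positive, granule-high and Ms4a4b-positive cells all left out it was -0.63, past the limit.

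Among Hlf-high cells alone, 2 of the 10 genes, Hsp90aa1 and Hspa1a, were higher in the ST-HSC library, and 1, Dnajb1, was lower. These counts are near the 15.1% and 12.4% of all genes. Hsp90aa1 was at 440.01 and 786 CPM, and Hspa1a at 8.91 and 14.6 CPM (ratio 1.64, 1.33 to 2.05). Dnajb1 was at 118 and 71.8 CPM (0.610, 0.571 to 0.651). Hsph1 followed Hsp90aa1 with a ratio of 1.48 (1.29 to 1.70), just inside the limit and past it with TMM, while Hspd1 had 0.747 (0.718 to 0.776), Hspe1 0.888 (0.854 to 0.923) and Hspa5 0.703 (0.679 to 0.729). Hspa1b did not go with Hspa1a: its ratio was 0.933 (0.759 to 1.15). Cycling cells, in which genes of S and G2/M phase took 1% or more of UMIs, were 4.38% of LT-HSC and 21.6% of ST-HSC Hlf-high cells. Among cells that were not cycling the log2 ratio of Hspa1a was 0.57 in place of 0.72, just under the limit of 1.5-fold, and with doublets left out it was 0.53.

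Car1-high cells of the libraries, a comparison added after the values were seen, gave a similar list. Hsp90aa1, at 1054 CPM (LT-HSC) and 2306 CPM (ST-HSC), and Hsph1, at 86.4 and 181 CPM, were higher. Dnajb1, at 133 and 87.5 CPM (0.658, 0.610 to 0.709), was the only member lower. The counts of 2 and 1 of 10 are near the 15.7% and 11.6% of all genes. The chaperonin was near equal, at 0.944 (0.921 to 0.966) for Hspd1 and 0.988 (0.965 to 1.012) for Hspe1. Cycling cells were 58.8% of these cells among LT-HSC and 86.0% among ST-HSC cells, and the part of this gap in the Hsp90aa1 and Hsph1 differences was not tested.

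Hsf1 itself, the heat shock transcription factor, differed little between classes. It stood at 24.5 CPM in Hlf-high, 25.8 CPM in Pf4-high and 22.7 CPM in Car1-high cells of the LT-HSC library, and its Car1-high to Hlf-high ratio was 0.926 (0.803 to 1.07) there and 1.05 (0.917 to 1.20) in the ST-HSC library. Between Car1-high cells of the libraries its ratio was 1.22 (1.06 to 1.41). Hsf2, a related factor, was lower in Car1-high than in Hlf-high cells, at 8.31 against 17.0 CPM (0.489, 0.402 to 0.595) in the LT-HSC library and 4.46 against 14.7 CPM (0.303, 0.217 to 0.413) in the ST-HSC library. Transcript levels of a factor that is activated as a protein do not measure its activity.

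The ST-HSC cells that met no definition were split, after their values were seen, into 242 Plbd1-positive cells (3 or more UMIs of Plbd1), 206 granule-high cells (Mpo, Elane, Ctsg and Prtn3 together at 20 or more per 10000), 123 Ms4a4b-positive cells (3 or more UMIs) and 1170 others. All comparisons with these groups are descriptions. The Plbd1-positive cells had the most Hspa1a and Hspa1b: 336 CPM (318 to 356) and 199.0 CPM (185 to 214), or 23.0-fold (20.8 to 25.4) and 19.7-fold (17.5 to 22.4) the level in ST-HSC Hlf-high cells. They made up 3.64% of the ST-HSC cells and held 28.3% of that library's UMIs of the pair. Granule-high cells stood at 64.7 and 43.7 CPM, Ms4a4b-positive cells at 81.0 and 56.6 CPM and the others at 27.1 and 24.1 CPM.

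In all, 5 members were higher in Plbd1-positive than in Hlf-high cells, against 14.2% of all genes, and 0 were lower, against 37.3%. Besides the pair these were Hspa5 at 788 CPM (2.86-fold, 2.74 to 2.98), Hsph1 at 77.6 CPM (2.31-fold, 2.02 to 2.63) and Hspa8 at 2100.1 CPM (1.91-fold, 1.86 to 1.96). The other 5 stayed under 1.5-fold in either direction. Hspe1 was at 337 CPM (ratio 1.27, 1.20 to 1.35), whereas its partner Hspd1 was at 168 CPM (ratio 0.708, 0.650 to 0.769), its lowest value in any class, Hsp90aa1 at 633 CPM (0.806, 0.772 to 0.841), Hsp90ab1 at 1959.9 CPM (0.826, 0.806 to 0.847) and Dnajb1 at 78.1 CPM (1.09, 0.959 to 1.23). The pattern thus differs from that of Car1-high cells, in which Hspd1, Hspe1 and Hsp90aa1 were high along with the pair. Dendritic markers summed to 25210.0 CPM in the Plbd1-positive cells, with 8 of 9 at 5 CPM or more, against 1327 CPM in ST-HSC Hlf-high cells. Immediate early genes summed to 3105 CPM against 1859 CPM, with 14 of 20 higher and 5 lower. The part of either in the Hspa1a and Hspa1b levels was not tested.

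The UMIs of the pair sat in few cells. To compare cells of unequal depth, each was thinned to 5000 UMIs. Shallower cells, 68 of the LT-HSC and 281 of the ST-HSC library, were set aside. After thinning, 26.4% (95% interval 20.9 to 32.4) of the Plbd1-positive cells held 5 or more UMIs of Hspa1a and Hspa1b, against 0.247% (0.0992 to 0.507) of ST-HSC Hlf-high cells. In the LT-HSC library the share was 1.63% (0.846 to 2.83) of Car1-high, 2.10% (0.686 to 4.83) of Pf4-high and 0.133% (0.00336 to 0.738) of Hlf-high cells. Of the 21 ST-HSC cells with 10 or more UMIs of the pair, 18 were Plbd1-positive, and the highest held 27. Plbd1-positive cells were uneven among themselves: their median was 1 UMI, and the top 10% held 44.1% of the pair's UMIs.

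**Figure D4:**
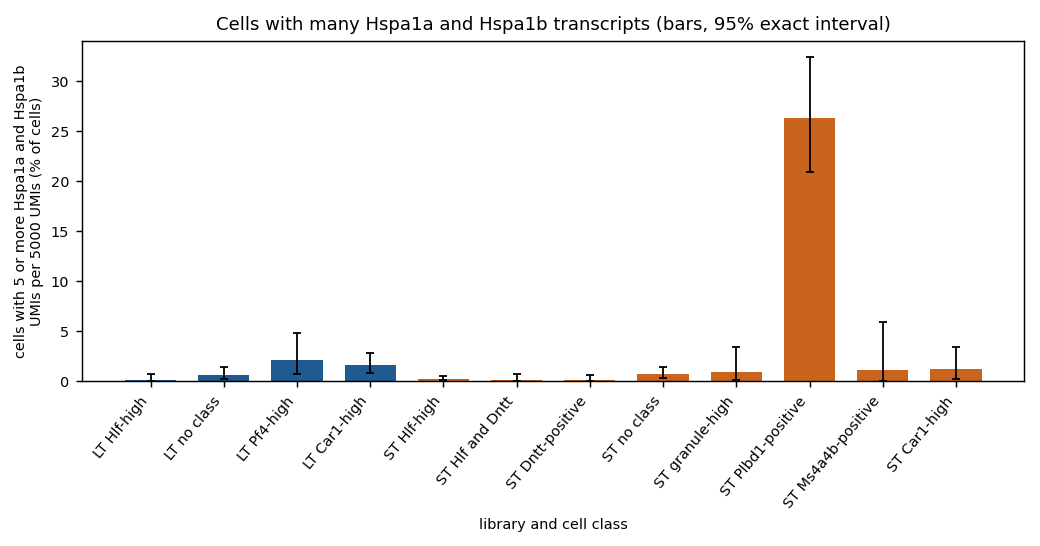
Percentage of cells (linear axis from 0) with 5 or more Hspa1a and Hspa1b UMIs after thinning to 5000 UMIs, by class of the LT-HSC library (blue bars) and the ST-HSC library (orange bars), with exact 95% intervals. The Plbd1-positive bar stands at 26.4%, and the next highest, LT-HSC Pf4-high, at 2.10%.

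Summed over Hspa1a, Hspa1b, Hsph1 and Dnajb1, 5 or more UMIs of 5000 were found in 3.81% (3.11 to 4.61) of LT-HSC cells and 2.36% (1.997 to 2.76) of ST-HSC cells. The LT-HSC share came mostly from Car1-high cells, of which 7.89% (6.05 to 10.1) reached it, against 1.33% (0.639 to 2.43) of Hlf-high cells. The ST-HSC share was 1.22% without the Plbd1-positive cells. Unthinned, at 10 or more per 10000 UMIs, the shares were 1.84% and 1.65%. In the LT-HSC library, Car1-high cells were 27.3% of cells and held 57.9% of the Hspa1a and Hspa1b UMIs, and Hlf-high cells were 28.3% of cells and held 4.67%.

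Cycling cells were compared with other cells of the same class where each kind had 50 or more cells. Ratios within the Hlf-high, Dntt-positive, Car1-high and Pf4-high classes reached at most 1.72, for Hspa1a in ST-HSC Dntt-positive cells, while in LT-HSC cells of no definition Hspa1a reached 2.17 (1.83 to 2.58). Hsp90aa1, whose protein folds many kinases of the cell cycle, was at 971 CPM in cycling and 705 CPM in other ST-HSC Hlf-high cells (ratio 1.38, 1.35 to 1.41), and had ratios of 1.245 (1.21 to 1.28) in LT-HSC Car1-high and 1.39 (1.35 to 1.44) in ST-HSC Dntt-positive cells. Hspd1 had 1.28 (1.23 to 1.34), 1.21 (1.17 to 1.24) and 1.31 (1.23 to 1.38) in the same classes, and Hspa8 1.21, 1.11 and 1.24. Hspd1 was not higher in cycling cells of every class: it had 0.960 (0.905 to 1.02) in LT-HSC Pf4-high and 0.911 (0.846 to 0.982) in granule-high cells. Dnajb1 and Hspa5 did not go with the cycle. Dnajb1 had 0.952 (0.878 to 1.03) in ST-HSC Hlf-high and 0.804 (0.751 to 0.860) in LT-HSC Car1-high cells, and Hspa5 had 0.811 (0.777 to 0.845) and 0.924 (0.888 to 0.962). ST-HSC cells of no definition went the other way for Hspa1a, with a cycling ratio of 0.539 (0.492 to 0.590). Among these, granule-high cells had 0.636 (0.514 to 0.787). The cells left without the Plbd1-positive, granule-high and Ms4a4b-positive groups had 1.64 (1.35 to 1.996). Within non-cycling cells of the LT-HSC library the Car1-high to Hlf-high log2 ratio was still 2.10 for Hspa1a, 2.21 for Hspa1b, 1.53 for Hsph1, 1.48 for Hspd1 and 1.43 for Hspe1.

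**Figure D5:**
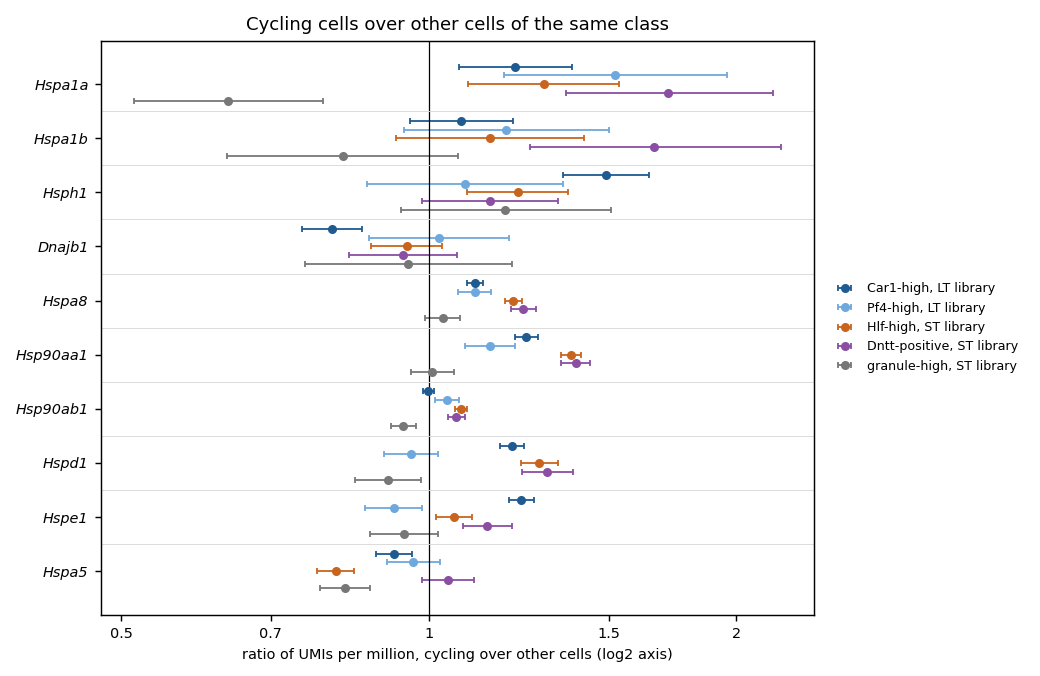
Ratio of cycling to other cells of the same class (log2 axis) for each gene in 5 classes, with exact conditional binomial 95% intervals. Hspa8 and Hsp90aa1 lie right of 1 in the Car1-high, Pf4-high, Hlf-high and Dntt-positive classes, and Hspa5 lies left of 1 in the Hlf-high, Car1-high and granule-high classes.

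Cell to cell, after thinning to 5000 UMIs, the highest correlation was between Hspd1 and Hspe1 among LT-HSC and between Hspa1a and Hspa1b among ST-HSC cells. Pearson's r over cells, which share a library and its depth, was 0.334 in the LT-HSC library (2654 cells) and 0.600 in the ST-HSC library (6367 cells) for Hspa1a with Hspa1b. Within the Plbd1-positive cells it was 0.714, and within ST-HSC Hlf-high cells 0.234. Hspd1 with Hspe1 gave 0.485 and 0.345 over the libraries, and Hspd1 with Hsp90aa1 0.412 and 0.438. Over whole libraries Dnajb1 had values of at most 0.184, with Hspa1a in the LT-HSC library. Within Plbd1-positive cells it had 0.306 with Hspa1a and 0.340 with Hspa1b. Within LT-HSC Car1-high cells these values were 0.313 and 0.234, beside 0.290 for Hspa1a with Hspa1b. Within ST-HSC Car1-high cells Dnajb1 had 0.139 and 0.135. Within the Hlf-high class Hspd1 with Hspe1 gave lower values, 0.145 in the LT-HSC and 0.144 in the ST-HSC library. The value was also low in ST-HSC Car1-high cells, at 0.114, and in Plbd1-positive cells, at 0.199, but 0.430 in LT-HSC Car1-high cells.

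The chaperone network around these genes was followed in 6 lists holding 119 further genes, of which 108 reached a mean of 5 CPM. Dnajc3 and Hspa13 stand in both the Hsp70 and the endoplasmic reticulum list. Between whole libraries 8 of the 108 were 1.5-fold higher in ST-HSC, or 7.41% against 24.9% of all genes, and 14 lower, or 13.0% against 10.3%. The cytosolic chaperonin CCT and its helper prefoldin, which fold actin and tubulin, were counted beside Hspd1 and Hspe1. Of 15 genes, 10 were higher in Car1-high than in Hlf-high cells of the LT-HSC library, 12 in the ST-HSC library, 8 in Pf4-high and 0 in Dntt-positive cells. The shares over all genes were 16.7%, 20.7%, 13.5% and 3.78%. Pfdn6 was at 226 against 71.3 CPM (3.16-fold, 2.94 to 3.41) and Cct7 at 330.2 against 179 CPM (1.85-fold, 1.76 to 1.94) in LT-HSC Car1-high and Hlf-high cells, while Pfdn5 went the other way (0.673, 0.650 to 0.697). In mitochondria, 6 of 16 further chaperones and proteases were higher in LT-HSC Car1-high cells and 10 of 16 in ST-HSC Car1-high cells, with 0 lower in both, against 16.7% and 20.7% of all genes higher and 41.5% and 39.1% lower. Among them Grpel1, the nucleotide exchange factor of mitochondrial Hsp70, was 2.24-fold (2.08 to 2.41) and Dnajc19 of the import motor 2.23-fold (2.09 to 2.38) higher in the LT-HSC library.

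Of 33 measured partners of cytosolic Hsp70, 5 were higher and 10 lower in LT-HSC Car1-high than in Hlf-high cells, beside 16.7% and 41.5% of all genes. Bag1, a nucleotide exchange factor, was at 353 against 137 CPM (2.57-fold, 2.43 to 2.71). Dnajc1 was at 109 against 227 CPM (0.479, 0.455 to 0.505). Between libraries, 3 of 32 were lower in ST-HSC, namely Bag1 (0.605), Hikeshi (0.635) and Dnajb4 (0.648), and 0 were higher, beside 10.3% and 24.9% of all genes. Hsp90 cochaperones had 2 of 18 higher and 4 lower in ST-HSC, beside the same shares. Fkbp5, a target of glucocorticoid receptor, was at 47.7 CPM (LT-HSC) and 109 CPM (ST-HSC) (2.29-fold, 2.20 to 2.38), and Ppid at 192 and 101 CPM (0.525, 0.512 to 0.539).

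Endoplasmic reticulum chaperones and genes of the unfolded protein response were counted beside Hspa5. In Plbd1-positive cells 17 of 25 were higher than in Hlf-high cells and 3 lower, against 14.2% and 37.3% of all genes, and Hspa5 was 2.86-fold higher. Between libraries 6 were higher and 3 lower in ST-HSC, which is near the 24.9% and 10.3% of all genes. The sensors Ern1, at 88.0 and 290.5 CPM (3.30-fold, 3.21 to 3.39), and Atf6, at 35.9 and 73.8 CPM (2.06-fold, 1.96 to 2.15), were higher in ST-HSC, while the protein disulphide isomerase Pdia3, at 436 and 259 CPM (0.593, 0.583 to 0.603), was lower, beside a ratio of 0.786 for Hspa5. Ern1 also differed by class, at 219.9 CPM in Hlf-high against 30.9 CPM in Car1-high cells of the LT-HSC library.

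Over the 8 units of 50 or more cells (each class of each library, and the cells placed in no single class), the 6992 other genes with a mean of 20 CPM were ranked by Pearson's r of log2(CPM + 1) with the members. The units come from 2 libraries and share them, so these values only describe likeness. Nearest to the summed Hspa1a, Hspa1b, Hsph1 and Dnajb1 were Ppp1r15b (0.9943), Aqp1 (0.9928), Smim1 (0.9921), Nxpe2 (0.9913) and Mt1 (0.9889). Ppp1r15b encodes a subunit of the phosphatase that reverses the integrated stress response and ranged from 16.1 to 33.7 CPM. Nearest to the summed Hspd1 and Hspe1 were Mrpl15 (0.9986), Tomm5 (0.9979), Bag1 (0.9974), Mdh2 (0.9973) and Wdr74 (0.9966), of which Mrpl15, Tomm5 and Mdh2 encode mitochondrial proteins.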

How the data were processed

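The authors deposited, for each of the 2 libraries, a matrix of whole-number UMI counts per gene and cell barcode. Cell Ranger 7.2 and build mm10 are named per the submitters' processing notes, and Cell Ranger 7.1.0 per the file headers. Whether intronic reads were counted is not given in the sources used here. The members and lists were chosen with earlier results of these data known.

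Counts were summed over the kept cells of a library or class and scaled to UMIs per 1000000 (CPM). Levels carry exact Poisson 95% intervals, ratios exact conditional binomial (Clopper-Pearson) intervals and shares of cells exact Clopper-Pearson intervals, all for counting error only. With 1 library per population there is no replicate error and no p-value, so a gene was called higher or lower by size, at 1.5-fold, among genes with a mean of 5 CPM or more. Fewer cells of a type and less RNA per cell cannot be told apart in sums over whole libraries. Cells meeting more than 1 definition were put in no class. For shares and cycling calls each cell was thinned at random to 5000 UMIs. A cell was called cycling where S and G2/M genes took 1% or more of the thinned UMIs.

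Genes named are the 10 members, Hsf1, the class genes, in each chaperone list the 3 highest and 3 lowest ratios between libraries, and the 5 genes most like each summed set. The Plbd1-positive, granule-high and Ms4a4b-positive groups and the comparison of Car1-high cells between libraries were chosen after seeing the data. Scrublet (in scanpy 1.11.5) marked 7 LT-HSC cells, or 0.257%, and 0 ST-HSC cells by its automatic threshold, which was taken as failed. The highest scores at a rate of 0.8% per 1000 cells, 40 and 353 cells, were left out as an alternative only, so doublets remain in the values of the report. Other alternatives were TMM (edgeR 4.0.16, for scaling only) and median-of-ratios scaling, stricter cells, every barcode, equal weight per cell, other class thresholds, cells not cycling, other folds and other filters. Python 3.11.15, numpy 2.4.6 and scipy 1.17.1 were used, and the ratio and interval code was tested on simulated data. Gene positions come from GENCODE M21 and promoter sequences from RefSeq (GRCm38.p6).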

Additional observations from a re-analysis of the deposited data

Results flagged for a closer look

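The barcodes left out by the limits on genes and mitochondrial UMIs enter no comparison, and they too held UMIs of Hspa1a, Hspa1b, Hsph1 and Dnajb1. In the LT-HSC library the 216 barcodes left out held 117 UMIs of these 4 genes, or 241 CPM (199.6 to 289), beside 254 CPM in the kept cells. In the ST-HSC library the 938 barcodes left out held 258 UMIs, or 152 CPM (134 to 172), beside 190.5 CPM in the kept cells.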

How the results depend on the processing

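No paired analysis was possible because each population is 1 library. Across the 10 genes and 6 comparisons, giving 60 ratios with 540 values under alternatives, 0 called ratios turned direction, 292 values moved by less than the counting interval and 248 moved by more. Some ratios that were not called did turn direction. They were Hspa1a, Hsph1 and Hspa8 between whole libraries, Hspa1b among Hlf-high cells, and Dnajb1 between Dntt-positive and Hlf-high cells. The ratio of Hspa1a between whole libraries ran from 0.645 to 1.48. Between whole libraries, leaving out Car1-high and Pf4-high cells gave 1 member higher in place of 0 and 1 lower in place of 4. Among Hlf-high cells, 1 member was higher in place of 2 with doublets left out, and 1 among cells not cycling, while doubled thresholds gave 2 lower in place of 1. In Dntt-positive cells 0 were higher in place of 2 among cells not cycling, and 0 when cells meeting several definitions were counted in each. Of the chaperone list genes, 8 were higher and 14 lower in ST-HSC. At the lower fold tried there were 16 and 36, and at a fold of 2 there were 3 and 0. With TMM 26 were lower, and with median-of-ratios scaling 26. The share of all genes lower also rose, from 10.3% to 16.2% with TMM and 17% with median-of-ratios scaling. Shares over all genes are not given for the other folds or the member counts above, so those counts describe the settings only. The share of cells with 5 or more inducible UMIs was 3.81% for LT-HSC and 2.36% for ST-HSC. At 10 UMIs it was 0.301% and 0.550%, unthinned it was 1.84% and 1.65%, and without Plbd1-positive cells the ST-HSC share was 1.22%. The causes were not tested. Depth limits Hspa1a and Hspa1b, at 8.91 and 10.8 CPM in LT-HSC Hlf-high cells.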
